A study of Mus musculus with 6 samples.

Results

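The expression of 6 genes linked to synaptic transmission was examined in sensory neurons of proprioception sorted from the dorsal root ganglia of mice. They were Cplx2 and Rims3, which act in transmitter release, Slc1a1 and Grm8, which carry or sense glutamate, and Kctd8 and Cnr1, which belong to inhibitory receptor systems. The members were the probe sets that carry these symbols on the list of transcripts enriched in muscle spindle neurons, which the authors deposited. Each gene had 1 probe set there, which made 6 of the 626 listed probe sets and of the 45101 on the array. The list had been selected on the same arrays, at a fold of at least 5 in favour of muscle spindle neurons and a p-value below 0.08. The difference between the groups is therefore given as a description of the selected probe sets, and no test of it is used.

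The array data came from neurons that supply muscle spindles (MS, 3 samples of about 1250 neurons) and neurons that supply Golgi tendon organs (GTO, 3 samples of about 725 neurons). All mice, of both sexes and on a mixed C57bl/129sv background, were 7 to 10 days old after birth. They carried 3 alleles, the Egr3::WGA-cherry reporter, the PV:Cre driver and Thy1-lsl-YFP. In this cross YFP, under the Thy1 promoter, marks cells in which PV:Cre has been active, and Cherry comes from the Egr3::WGA-cherry reporter. Whether Cherry in a sorted neuron reflects Egr3 activity of that neuron itself was not tested. MS neurons were sorted as Cherry+YFP+ and GTO neurons as Cherry-YFP+. The labels call both populations enriched rather than pure, and the neurons of several sorts were pooled, so that a sample is neither 1 animal nor 1 sort.

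Proprioceptive afferents release glutamate from their central terminals in the spinal cord. In textbook accounts, afferents from the primary endings of spindles excite motor neurons directly, whereas those from Golgi tendon organs act through interneurons. Release from such terminals depends on the SNARE machinery, its regulators and the active zone, and is held in check by presynaptic inhibition, in which GABA and other transmitters act on receptors of the terminal itself. The sensory endings of spindles also hold small clear vesicles with glutamate, which modulates the response to stretch.

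The 250 bases upstream of the annotated start are shown for Cplx2, Rims3, Slc1a1 and Kctd8, which each have 1 start in the RefSeq table (assembly GRCm38.p6), so that a single window belongs to each gene. They are printed to show how the start regions of genes on the same list differ. Capitals mark the GC box (GGGCGG), the cAMP response element (TGACGTCA), the Egr site (GCGNGGGCG), the CCAAT box (CCAAT) and the TATA box (TATAAA), searched on both strands.
Cplx2, chr13:54302306-54302555, plus strand: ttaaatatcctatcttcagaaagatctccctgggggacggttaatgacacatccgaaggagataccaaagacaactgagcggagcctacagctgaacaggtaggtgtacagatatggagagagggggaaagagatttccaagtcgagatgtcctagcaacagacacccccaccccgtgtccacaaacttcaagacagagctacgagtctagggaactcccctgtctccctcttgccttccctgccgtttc
Rims3, chr4:120854549-120854798, plus strand: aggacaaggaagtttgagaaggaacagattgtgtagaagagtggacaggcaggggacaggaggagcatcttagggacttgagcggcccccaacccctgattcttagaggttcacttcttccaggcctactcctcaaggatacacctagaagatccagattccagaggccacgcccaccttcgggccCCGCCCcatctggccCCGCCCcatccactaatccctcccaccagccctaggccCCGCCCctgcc
Slc1a1, chr19:28834885-28835134, plus strand: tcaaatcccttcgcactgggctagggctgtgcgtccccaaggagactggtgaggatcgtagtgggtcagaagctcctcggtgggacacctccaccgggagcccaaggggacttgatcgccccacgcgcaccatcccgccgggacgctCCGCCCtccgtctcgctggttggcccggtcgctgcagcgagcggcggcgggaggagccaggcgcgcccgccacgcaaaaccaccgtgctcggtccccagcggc
Kctd8, chr5:69341710-69341959, minus strand: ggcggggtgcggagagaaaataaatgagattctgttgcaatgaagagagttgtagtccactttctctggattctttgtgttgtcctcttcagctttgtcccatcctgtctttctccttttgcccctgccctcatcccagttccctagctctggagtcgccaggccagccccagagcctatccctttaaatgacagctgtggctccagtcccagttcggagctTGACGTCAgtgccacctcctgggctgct
The Rims3 window held 3 GC boxes, the Slc1a1 window 1, and the Kctd8 window 1 cAMP response element, while none of the 5 motifs was found in that of Cplx2. Grm8 and Cnr1 have 3 annotated starts each, and the arrays do not tell them apart, so their windows were counted but are not printed. A GC box stood in 4 of the 10 windows of the 6 genes (1 each of Rims3, Slc1a1, Grm8 and Cnr1), and in 32.7% of the 32851 windows of the same length in the table. The cAMP response element stood in the Kctd8 window alone among the 10 windows, and in 1.55% of all windows. The CCAAT box was found in 2 of the 10 windows, both of Grm8, against 33.8% of all windows. Neither the Egr site, which can overlap a GC box, nor the TATA box was found in any of the 10 windows, against 4.70% and 12.4% of all windows. The letters CANNTG of the E-box, which are not capitalised here, stood in 7 of the 10 windows and in 66.2% of all. The number of CpG dinucleotides ranged from 2 at a Grm8 start to 36 at a Cnr1 start. The median was 7.5 for the 10 windows and 6 for all windows. Among the printed windows Slc1a1 had the most, 27 with a GC content of 70.4%, against 7 and 50.8% for Cplx2, 6 and 59.6% for Rims3, and 5 and 53.6% for Kctd8.

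Overall signal was not equal. Upper quartiles of log2 value ranged over 6.79 to 6.87 for MS and 5.57 to 6.68 for GTO, the lowest being GTO array 3. GTO samples also held fewer neurons. Array signal and neuron number cannot be told apart from the class of neuron by this design, and fewer cells with a transcript cannot be told apart from less transcript per cell. A log2 value of 4 served as the limit for a measured signal. For comparison, 27 bacterial spike-in control probe sets read between 1.86 and 2.89. Gene names come from the deposited list alone, so cell type markers could be read only where they stood on it. The list rule was met in the MS direction by 1.39% of the 45037 probe sets that are not controls. Markers were counted as genes, which can have several probe sets, so nothing is read from their count. Of 54 markers in 10 lists, 5 were listed. They were Whrn (1 of 8 proprioceptor markers), Plxnc1 (1 of 6 nociceptor markers), Gfra2 (1 of 5 cutaneous mechanoreceptor markers), Mbp (1 of 5 Schwann cell markers) and Sparc (1 of 6 fibroblast markers). Mbp had log2 values of 6.03, 7.18 and 5.98 in the MS samples, against 3.32, 2.49 and 2.65 in the GTO samples. Sparc had 7.23, 9.32 and 9.13 in MS, against 3.20, 4.23 and 3.40 in GTO. Gfra2 averaged 12.30 in MS and 9.75 in GTO, and Whrn averaged 4.96 in MS and 2.31 in GTO. The 2 probe sets of Plxnc1 averaged 9.06 and 6.97 in MS, against 4.64 and 4.26 in GTO. All listed markers, of glia, connective tissue and sensory neuron classes alike, were higher in MS through the choice of the list. Their part in the differences of the 6 genes was not tested.

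All 6 probe sets had a log2 value of at least 4 on the 3 MS arrays, and so passed the filter on low values (at least 4 on at least 3 arrays) through the group in which they were chosen to be high. Every MS array lay above every GTO array for all 6, as for 9.90% of the 16256 probe sets that passed the filter. Selection for a large difference favours this. In the limma model over these 16256 probe sets, 0 of the 6 had an adjusted p under 0.05, a limit that 0.0185% of all tested probe sets passed in the MS direction. At an unadjusted p under 0.05 the limma count was 6 of 6, against 6.48% of all, and nothing is read from either count, since the members were chosen on this contrast. The list rule itself, with the ordinary statistic, was met in the MS direction by 1.39% of the 45037 probe sets that are not controls. The median log2 difference of the 6 was 2.52, and that of all tested probe sets was 0.31.

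**Figure D1:**
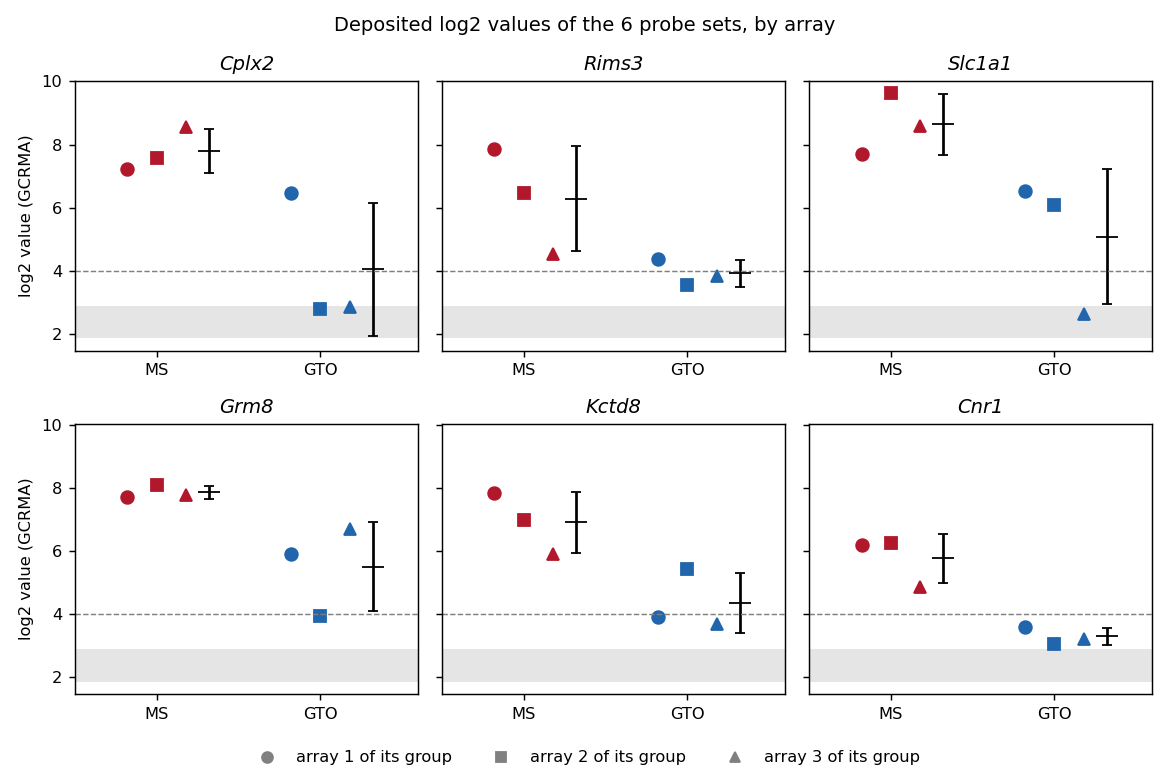
Deposited log2 values (y axis) of the 6 probe sets on the MS arrays (red) and GTO arrays (blue), with the array number as the shape. Black bars are the mean ± SD of 3 arrays, the dashed line is the limit of log2 4, and the grey band spans the spike-in controls (1.86 to 2.89). The GTO values of Cplx2, Slc1a1 and Grm8 are spread over 2.76 to 3.90 log2 units, whereas those of Cnr1 and Rims3 lie within 0.84.

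Of the release genes, Cplx2 varied most among the GTO arrays and Rims3 among the MS arrays. Cplx2 encodes a complexin, a small protein that binds the assembled SNARE complex and controls calcium-triggered fusion of vesicles. It read 7.24, 7.59 and 8.56 in MS samples 1, 2 and 3, against 6.48, 2.81 and 2.86 in GTO samples 1, 2 and 3 (log2). The MS arrays were all high, and GTO array 1 lay 0.76 below the lowest of them, while GTO arrays 2 and 3 read within the range of the spike-in controls. The means were 7.80 ± 0.68 in MS and 4.05 ± 2.11 in GTO (SD, n = 3), a log2 difference of 3.75 ± 1.11 (SE). The authors' deposited table gives Cplx2 a fold of 13.4, the largest of the 6. With values below log2 4 set to 4 it was 7.83-fold, below the 8.60-fold of Slc1a1 on the same scale. The fold depended on which GTO arrays were used. Without GTO array 1 the log2 difference was 4.97, and since both other GTO arrays lay under 4, this reads as at least 13.9-fold. It was 8.73-fold without GTO array 2 and 8.89-fold without GTO array 3. Against GTO array 1 alone the MS mean was 2.48-fold higher.

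Rims3 encodes a short member of the RIM family of active zone proteins, which regulates exocytosis. It read 7.85, 6.48 and 4.53 in MS samples 1, 2 and 3, against 4.38, 3.55 and 3.83 in GTO samples 1, 2 and 3. Here the GTO arrays were uniformly low and the MS arrays ranged widely, over 3.32 log2 units or 9.97-fold, which was the widest MS range among the 6. MS array 3 lay only 0.15 above GTO array 1. The means were 6.29 ± 1.67 in MS and 3.92 ± 0.42 in GTO (SD, n = 3), a log2 difference of 2.37 ± 0.89 (SE). In the authors' deposited table Rims3 has a fold of 5.16 and a p-value of 0.0758, the highest p of the 6. Leaving out MS array 1 gave a log2 difference of 1.58, and leaving out MS array 3 one of 3.24. These differences include values under log2 4 on GTO arrays 2 and 3, and with such values set to 4 the difference over all arrays was 2.16.

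Both glutamate genes were high on all MS arrays, and each had GTO arrays far apart. Slc1a1 encodes the glutamate and cysteine transporter of neurons known as EAAT3 or EAAC1. It read 7.69, 9.63 and 8.60 in MS samples 1, 2 and 3, against 6.53, 6.08 and 2.62 in GTO samples 1, 2 and 3. GTO arrays 1 and 2 carried a clear signal, while GTO array 3 read within the range of the spike-in controls. The means were 8.64 ± 0.97 in MS and 5.08 ± 2.14 in GTO (SD, n = 3), a log2 difference of 3.56 ± 1.16 (SE). The authors' deposited table gives a fold of 11.8. That fold was 5.05 without GTO array 3 and 19.5 without GTO array 1. Both 11.8 and 19.5 rest in part on GTO array 3, which lay under log2 4. With values below 4 set to 4, the fold over all arrays was 8.60.

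Grm8 encodes mGluR8, a metabotropic glutamate receptor of the group that couples to inhibitory G proteins and is found mainly at presynaptic terminals. It read 7.72, 8.08 and 7.76 in MS samples 1, 2 and 3, against 5.91, 3.93 and 6.69 in GTO samples 1, 2 and 3. The MS arrays lay within 0.36 log2 units of each other, the narrowest MS range of the 6, and GTO array 3 was the highest of the GTO arrays although overall signal was lowest there. The means were 7.85 ± 0.20 in MS and 5.51 ± 1.42 in GTO (SD, n = 3), a log2 difference of 2.35 ± 0.77 (SE). Against GTO array 3 alone the MS mean was 2.24-fold higher. The fold was 2.94 without GTO array 2 and 7.66 without GTO array 3. In the authors' deposited table Grm8 stands just inside the limit, with a fold of 5.08, where the lowest fold on the list is 5.01 and the next probe set outside it has 4.9998. On the side of the p-value, the highest on the list is 0.0795 and the next outside is 0.0801, with Rims3 at 0.0758 nearest among the 6.

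Both genes of inhibitory receptor systems lay under log2 4 on most GTO arrays, as did both release genes. Kctd8 encodes an auxiliary subunit of GABA-B receptors, which shapes the kinetics of their G protein response. It read 7.85, 6.97 and 5.92 in MS samples 1, 2 and 3, against 3.90, 5.43 and 3.70 in GTO samples 1, 2 and 3. GTO array 2 was the high one for this gene and lay 0.48 under MS array 3. The means were 6.91 ± 0.97 in MS and 4.35 ± 0.95 in GTO (SD, n = 3), a log2 difference of 2.57 ± 0.74 (SE). The authors' deposited table gives a fold of 5.93. With 1 array left out at a time, the fold was lowest, 4.28, without MS array 1. It was at least 7.53 without GTO array 2, since the other GTO arrays then lay under 4. After quantile normalization of all arrays it was 3.91.

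Cnr1 encodes the cannabinoid receptor CB1, a presynaptic receptor through which endocannabinoids reduce transmitter release. It read 6.20, 6.24 and 4.87 in MS samples 1, 2 and 3, against 3.60, 3.07 and 3.21 in GTO samples 1, 2 and 3. All GTO arrays lay under log2 4, which was the case for Cnr1 alone among the 6, and the MS arrays all lay above it. The means were 5.77 ± 0.78 in MS and 3.29 ± 0.28 in GTO (SD, n = 3), a log2 difference of 2.47 ± 0.54 (SE). Since GTO lay under the limit of measured signal, this reads as at least 3.40-fold. The authors' deposited table gives a fold of 5.55 and a p-value of 0.00665, the lowest p of the 6. The group difference made up 87.0% of the deposited sum of squares of Cnr1, against 58.7% for Rims3 at the other end of the 6 and a median of 74.4% over the 626 listed probe sets.

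**Figure D2:**
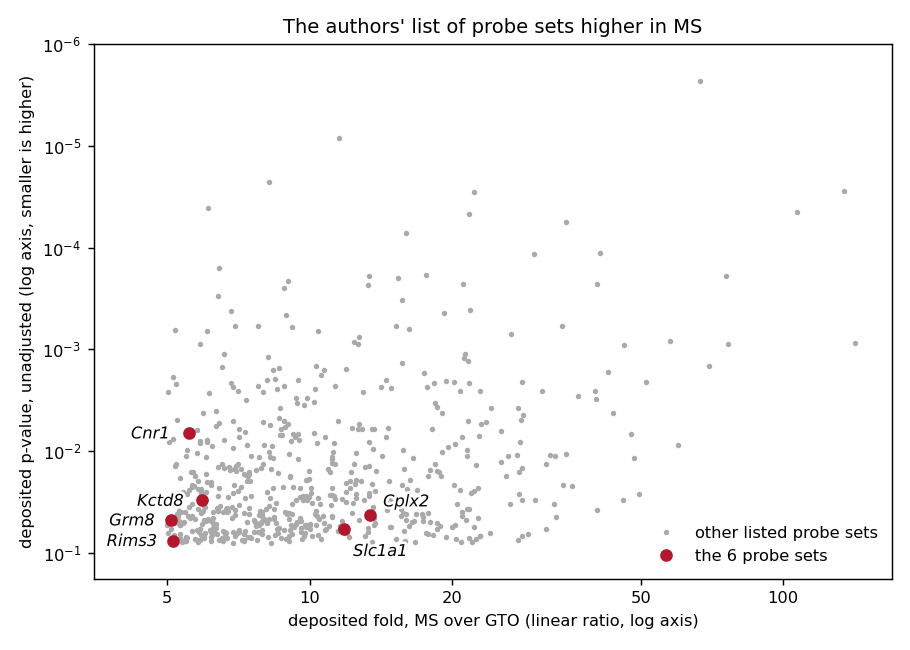
Deposited fold (x axis, MS over GTO, log scale) against the deposited unadjusted p-value (y axis, log scale, smaller values higher) for the 626 listed probe sets in grey and the 6 in red. Rims3, Grm8, Cnr1 and Kctd8 lie between 5.08 and 5.93, near the lower limit of the list, and Slc1a1 and Cplx2 at 11.8 and 13.4.

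The GTO array that came nearest to the MS values was not the same one for every gene. GTO array 1 was the highest of the GTO arrays for Cplx2, Rims3, Slc1a1 and Cnr1, GTO array 2 for Kctd8 and GTO array 3 for Grm8. Over the 626 listed probe sets, GTO array 1 was the highest for 323, GTO array 2 for 164 and GTO array 3 for 139. Kctd8 was the only 1 of the 6 whose MS mean was at least 5-fold above GTO array 1 taken alone, against 419 of the 626 listed probe sets (66.9%) and 6.74% of all tested. Against GTO array 2 alone the count was 5 of 6, with Kctd8 the exception, and 86.7% of the list and 14.4% of all tested did so. With GTO array 3 alone it was also 5 of 6, with Grm8 the exception, and 91.5% of the list and 20.2% of all tested. Some of these folds rest on values under log2 4. Over the 9 possible pairs of an MS and a GTO array, 5 or 6 pairs were at least 5-fold apart for every gene except Grm8, which had 3. The 6 genes share their direction through the choice of the list, but the order of the GTO arrays differed between them.

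The place of a probe set in the order of its own array does not change when an array is rescaled as a whole. On this scale the groups stayed apart for Cplx2, Slc1a1, Grm8 and Cnr1 and overlapped for Rims3 and Kctd8. Separation of this kind was seen for 6.57% of all tested probe sets. Cplx2 stood at the percentiles 76.9, 78.6 and 83.9 of MS arrays 1, 2 and 3, and at 74.1, 44.7 and 43.2 of GTO arrays 1, 2 and 3. Rims3 stood at 80.0, 73.1 and 65.3 in MS and at 65.7, 63.2 and 65.1 in GTO, so that MS array 3 fell among the GTO arrays. Kctd8 stood at 80.0, 75.6 and 71.0 in MS and at 63.6, 72.6 and 63.6 in GTO, with GTO array 2 above MS array 3. For Grm8 the lowest MS array, at 79.3, lay barely above GTO array 3, at 78.9. Slc1a1 had 79.2 as its lowest percentile in MS and 74.7 as its highest in GTO, and Cnr1 66.6 and 61.9.

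**Figure D3:**
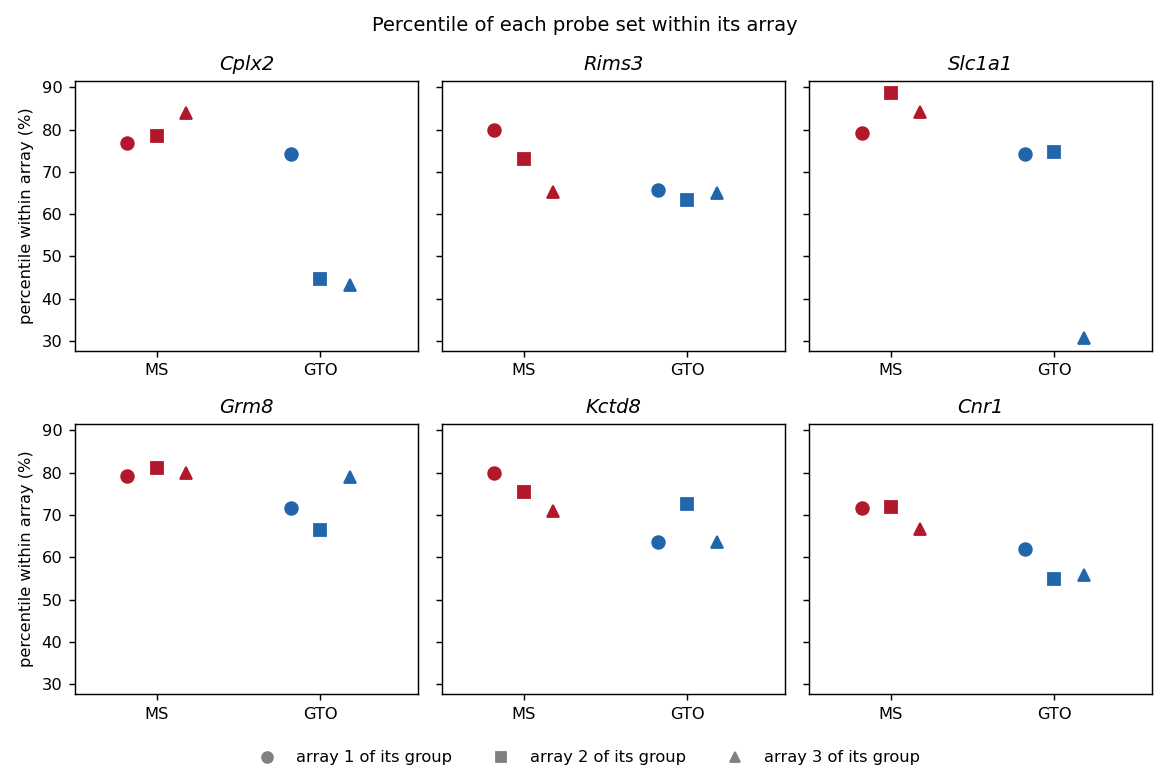
Percentile of each probe set among the 45037 probe sets of its own array (y axis, percent), with MS arrays in red and GTO arrays in blue and the array number as the shape. MS and GTO points overlap for Rims3 and Kctd8, and Cplx2 and Slc1a1 have GTO arrays at 43.2 and 30.6.

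Rescaling the arrays lowered all 6 differences. After quantile normalization the log2 difference was 3.65 for Cplx2, 3.41 for Slc1a1, 2.08 for Cnr1, 1.97 for Kctd8, 1.79 for Rims3 and 1.76 for Grm8. Only Cplx2 and Slc1a1 still met the 5-fold and p-value limits of the list, also after each array was centred on its median. The median of all tested probe sets moved from 0.31 to 0.02 under quantile normalization and to -0.06 under centring, while that of the 6 was 2.02 and 2.15. After quantile normalization every MS array lay above every GTO array for 4 of the 6 (Cplx2, Slc1a1, Grm8 and Cnr1) and for 6.59% of all tested probe sets.

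**Figure D4:**
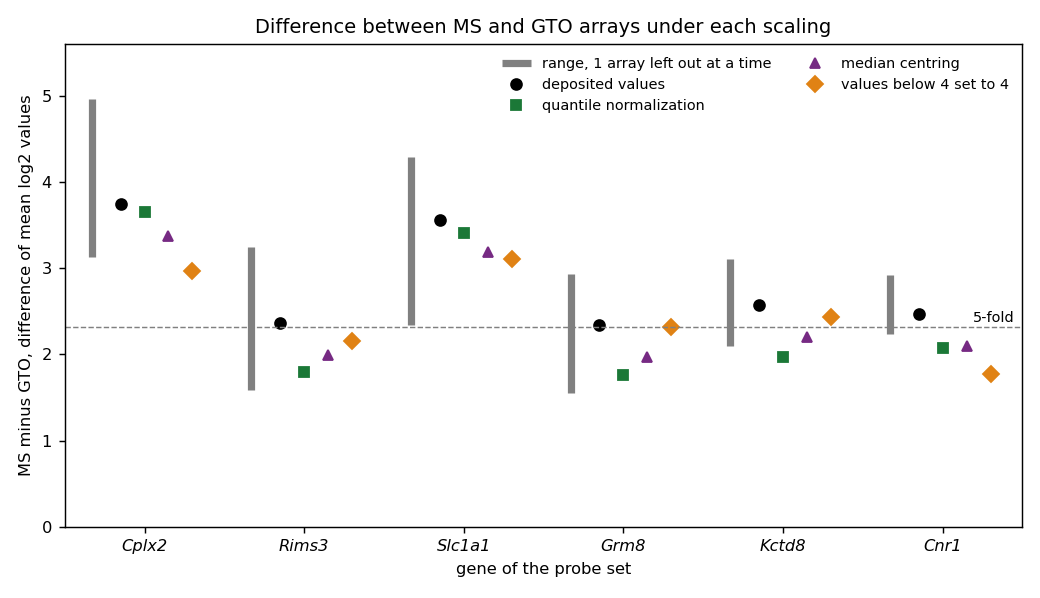
MS minus GTO difference of mean log2 values (y axis) for each gene, from the deposited values, after quantile normalization, after median centring and with values below 4 set to 4. Grey bars span the differences when 1 array was left out at a time, and the dashed line marks 5-fold. Cplx2 and Slc1a1 lie above that line under every setting, while the other 4 genes lie below it under at least 1 setting.

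The wider set of synaptic genes was read from 9 lists with 155 genes. The lists were chosen with the 6 genes known, and 1.39% of the 45037 probe sets that are not controls met the list rule. The deposited list held 6 of the 155, which were the 6 genes described above, and nothing is read from this count. They were 1 of 32 genes of the release machinery (Cplx2), 1 of 23 active zone genes (Rims3), 1 of 20 genes of glutamate transport and metabolism (Slc1a1), 1 of 8 metabotropic glutamate receptors (Grm8), 1 of 6 genes of the GABA-B receptor and its auxiliary subunits (Kctd8) and 1 of 11 endocannabinoid genes (Cnr1). None of 18 ionotropic glutamate receptor genes, 15 GABA-A receptor genes and 22 genes of other presynaptic inhibitory receptors was listed. The receptor subunits that Kctd8 binds, Gabbr1 and Gabbr2, and the vesicular glutamate transporter of proprioceptors, Slc17a7, were not listed either. The list holds probe sets higher in MS, so absence from it says nothing of the level of a gene or of a difference in the other direction. Other probe sets of the 6 genes were not analysed here.

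The listed genes with the most similar array profiles were found by the root mean square difference over the 6 arrays, after the mean of each probe set was subtracted. For Cplx2 they were Tnrc6a at 0.25 and Map3k12 at 0.31 log2 units, both high on GTO array 1 and low on GTO arrays 2 and 3. For Rims3 they were Akap9 (0.24) and Ctdsp2 (0.28), and for Slc1a1 Rnf112 (0.50) and Hibadh (0.55). Grm8 was closest to Ccdc6 (0.22) and Thoc1 (0.40), Kctd8 to Atp6v1d (0.32) and Pdp1 (0.33), and Cnr1 to Miga2 (0.12) and Lurap1l (0.23). Akap9, Ctdsp2, Miga2 and Lurap1l read under log2 4 on every GTO array. Akap9 (3.74) and Ctdsp2 (2.90) did so on MS array 3 as well. These small distances therefore rest in part on values under the limit of measured signal. The median distance to the listed genes was between 1.04 for Cnr1 and 1.52 for Slc1a1. Among themselves, the nearest of the 6 were Rims3 and Cnr1, at 0.60, and the farthest Slc1a1 and Grm8, at 2.02. All these probe sets were chosen as higher in MS on the same arrays, which makes their profiles alike in part.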

How the data were processed

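RNA of 3 MS and 3 GTO samples was amplified before biotin labelling, per the labels' protocols, and hybridised to 1 array each. The deposited log2 values were made with GCRMA and Partek, per the submitters' processing notes; their versions, the genome build and the annotation of the array are not given in the sources used here. Recomputed group differences gave the authors' deposited fold within a relative deviation of 2.1e-05. The deposited list also holds a p-value, a linear fold ratio (MS over GTO) and, as scores, F values and sums of squares from the authors' comparison; the share between groups was computed from these sums. The labels call the samples biological replicates.

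After the 64 control probe sets were left out, those reaching log2 4 or more on 3 or more arrays were fitted with limma 3.58.1 in R 4.3.3 (two-sided, Benjamini-Hochberg adjustment, no covariate). This was tested on simulated data. Precision is limited by the number of arrays. Named genes were every listed probe set of the 6 genes, the members of the lists that stood on the deposited list, and the 2 listed genes nearest in profile to each. The members and lists were chosen with earlier results of these data known. Symbols were matched to RefSeq by Entrez identifier, and all 6 genes matched. Alternatives were 2 rescalings, a floor, other filters, a trend, a replicate block and each array left out. The percentile within each array was added after the data had been seen.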

Additional observations from a re-analysis of the deposited data

How the results depend on the processing

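In limma, 3 probe sets of all tested had an adjusted p under 0.05, none of them a probe set of the 6 genes. The count was 3 after quantile normalization and 12 with no filter and 11 with the filter at log2 6. It was 0 after median centring, with the floor at log2 4, with an intensity trend and with a replicate block (1214, 1263, 1324 and 1401 at an unadjusted p under 0.05). With any 1 array left out it was 0 (622 to 1759 unadjusted).

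Of the 6 probe sets, 2 (Cplx2 and Slc1a1) met the rule of the deposited list after quantile normalization and 2 after centring, 3 (Cplx2, Slc1a1 and Kctd8) with the floor, and 2 (Kctd8 and Cnr1) with the replicate block. The range was 0 to 3 when 1 array was left out, with 0 where MS array 1 or MS array 2 was omitted. Leaving out an array can raise or lower the p-value, depending on the array. The fold itself was under 5 for Rims3 (3.00), Kctd8 (4.28) and Cnr1 (4.79) without MS array 1. Without MS array 2 it was under 5 for Rims3 (4.83), Grm8 (4.69) and Cnr1 (4.72). The difference of Cnr1 was 1.77 with the floor, which removes the part of it below log2 4. Of the 60 alternative values of the 6 differences, 59 moved by less than the replicate SD. This count is no test of stability. With 3 arrays per group, leaving 1 out cannot move a difference by as much as that SD. The replicate block leaves the differences unchanged, since the design is balanced. The sign of the differences is fixed in large part by the choice of the list. After quantile normalization and by percentile the groups overlapped for Rims3 and Kctd8.

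Whether the numbers pair the samples could not be settled. Deviations of same-numbered MS and GTO arrays 1, 2 and 3 correlated at -0.06, 0.10 and 0.11 over the tested probe sets. Arrays of unlike number correlated at -0.17 to 0.09. MS arrays 2 and 3 were each closest to their own number, whereas MS array 1 was closer to GTO array 2 (0.09). All these correlations were small, so they do not decide on a pairing.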
